A study of Mus musculus with 10 samples.

Results

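This account covers 10 genes for proteases of the extracellular matrix and for the proteins that inhibit them, in pancreatic islets of young mice. They are the metalloproteases Mmp2, Mmp14, Mmp11 and Adamts1, the serine proteases Htra1 and Htra3, and the inhibitors Timp1, Timp2, Timp3 and Reck. All probe sets annotated to these symbols were taken, 24 in number, and the 10 genes stand among 18193 genes with a single symbol in the annotation of the array. The genes were chosen by family, but with the genotype differences of these same arrays known, in which Htra3 and many stromal genes stood lower in heterozygous islets. The genotype differences below are therefore given as a description with no test.

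Islets came from 5 female mice heterozygous for Men1, the gene for the tumour suppressor menin, and from 5 female wildtype littermates. All were 5 weeks old, untreated, and of the strain labelled C57 on a 129 background. The Men1 allele is not named in the sources used here. About 100 islets of each mouse gave 1 RNA sample and 1 array, so that replicates are separate mice. Values are log2 expression, so a difference of -1 is a halving, and differences are heterozygous minus wildtype throughout.

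Matrix metalloproteases are enzymes with a zinc ion that cut collagens, laminins and other matrix proteins, and most are made as inactive precursors. MMP14 sits in the cell membrane and, with TIMP2 as a bridge, activates the precursor of MMP2, a gelatinase that degrades type IV collagen of basement membranes. TIMPs are small secreted inhibitors, TIMP3 being bound to the matrix, and RECK is a membrane-anchored inhibitor. In the pancreas these genes are typical of fibroblasts, stellate cells and vessel wall cells around and within islets rather than of hormone cells.

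The arrays were alike in overall signal, with medians from 3.28 to 3.40 and 18458 to 18890 probe sets above a log2 value of 4 on each. The islet label was checked with Ins2, the insulin gene that defines beta cells, which measured 16.23 ± 0.024 in islets of heterozygous mice and 16.28 ± 0.073 in those of wildtype mice (SD, n = 5 each), near the top of the measured range. Men1, through its 1 probe set above the filter, gave 6.42 ± 0.30 in heterozygous mice and 6.89 ± 0.39 in wildtype mice. The difference was -0.47 (SE 0.20). The groups overlapped, at 6.09 to 6.82 in heterozygous and 6.25 to 7.21 in wildtype mice, so Men1 does not separate the mice by genotype. Its further probe sets lay below the filter. The 9 measured acinar genes, which are 7 enzyme genes and the transcription factor genes Ptf1a and Rbpjl, averaged 14.60 to 15.24 per heterozygous array and 14.97 to 15.22 per wildtype array, so acinar transcripts were present in every sample. The enzyme genes alone lay around the level of Ins2. They ran from Cel, with means of 16.08 in heterozygous and 16.13 in wildtype mice, to Cela3b, with 17.05 and 17.08. A probe set was compared if it lay above 4 on at least 5 of the 10 arrays, which 18567 of 45037 did. With limma, 0 of these passed an adjusted p of 0.05 (0% called, lowest adjusted p = 0.720), with 760 at an unadjusted p under 0.05.

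The start regions of 9 of the 10 genes were found in RefSeq's promoter table (GRCm38.p6), and 4 are printed here. Htra1 and Timp2 are shown because their levels were among the 4 most closely correlated with fibroblast genes between mice, and Mmp14 and Htra3 because their groups did not overlap. Each line holds the 250 bases before the gene's start, read 5′ to 3′ on the gene's own strand, with GC boxes (GGGCGG or its reverse complement CCGCCC) in capitals.
Htra1, chr7:130935953-130936202, plus strand: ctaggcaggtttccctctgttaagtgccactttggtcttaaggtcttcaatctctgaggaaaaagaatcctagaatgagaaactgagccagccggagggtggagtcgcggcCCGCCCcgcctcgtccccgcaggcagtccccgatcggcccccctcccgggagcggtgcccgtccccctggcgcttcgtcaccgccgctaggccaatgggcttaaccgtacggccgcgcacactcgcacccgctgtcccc
Timp2, chr11:118355412-118355661, minus strand: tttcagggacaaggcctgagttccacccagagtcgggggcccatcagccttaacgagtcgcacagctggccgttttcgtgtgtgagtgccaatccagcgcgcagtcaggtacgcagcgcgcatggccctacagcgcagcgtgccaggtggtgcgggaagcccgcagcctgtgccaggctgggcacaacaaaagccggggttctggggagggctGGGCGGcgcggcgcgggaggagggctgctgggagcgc
Mmp14, chr14:54431348-54431597, plus strand: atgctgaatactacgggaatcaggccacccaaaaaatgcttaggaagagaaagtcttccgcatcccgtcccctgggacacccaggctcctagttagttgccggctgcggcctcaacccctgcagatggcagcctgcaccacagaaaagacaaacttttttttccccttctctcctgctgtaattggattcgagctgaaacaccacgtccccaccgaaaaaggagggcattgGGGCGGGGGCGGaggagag
Htra3, chr5:35679781-35680030, minus strand: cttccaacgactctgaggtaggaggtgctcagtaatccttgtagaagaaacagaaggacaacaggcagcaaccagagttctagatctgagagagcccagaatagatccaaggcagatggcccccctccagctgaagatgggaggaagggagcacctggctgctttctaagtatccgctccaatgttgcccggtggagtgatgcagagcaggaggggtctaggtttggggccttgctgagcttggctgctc
A GC box, the motif of Sp1-type factors, was found in 8 of the 9 windows, against 32.7% of the 32851 windows of that length in the table. Mmp14 holds 2 that lie end to end, Htra1 and Timp2 hold 1 each, and the Htra3 window holds none. CpG dinucleotides numbered 22 in Htra1, 21 in Timp2, 10 in Mmp14 and 3 in Htra3, where the median window holds 6. The table's windows were not matched to these for CpG content, so the GC box share is not read as a trait of these genes. The AP-1 motif TGANTCA was found in 0 of the 9 windows (6.75% of all windows) and the TATA motif TATAAA, searched on both strands, in 1, that of Adamts1 (12.4% of all windows). These matches describe letters in the window and say nothing of binding.

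Of the 10 genes, 8 had a probe set above the filter and 2, Mmp11 and Timp1, did not. Of the 24 probe sets 15 passed. The other 9 ranged from 1.89 to 3.03 on all arrays and belonged to Mmp11, Timp1 and to further probe sets of Mmp14, Htra3, Timp2 and Timp3. All 8 measured genes had a lower mean in heterozygous islets, against 43.6% of all probe sets compared. Their differences ran from -0.92 to -0.31 with a median of -0.54, where the median over all probe sets compared was 0.022. In 2 genes, Mmp14 and Htra3, every heterozygous mouse lay below every wildtype mouse, against 0.172% of all probe sets, and in 0 genes did every heterozygous mouse lie above every wildtype mouse, against 0.528%. Since the genes were chosen with this contrast known, nothing is read from these shares, and 0 of the 15 probe sets passed the fit over all probe sets. Where a gene had several probe sets above the filter, the brightest stands for it below.

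**Figure D1:**
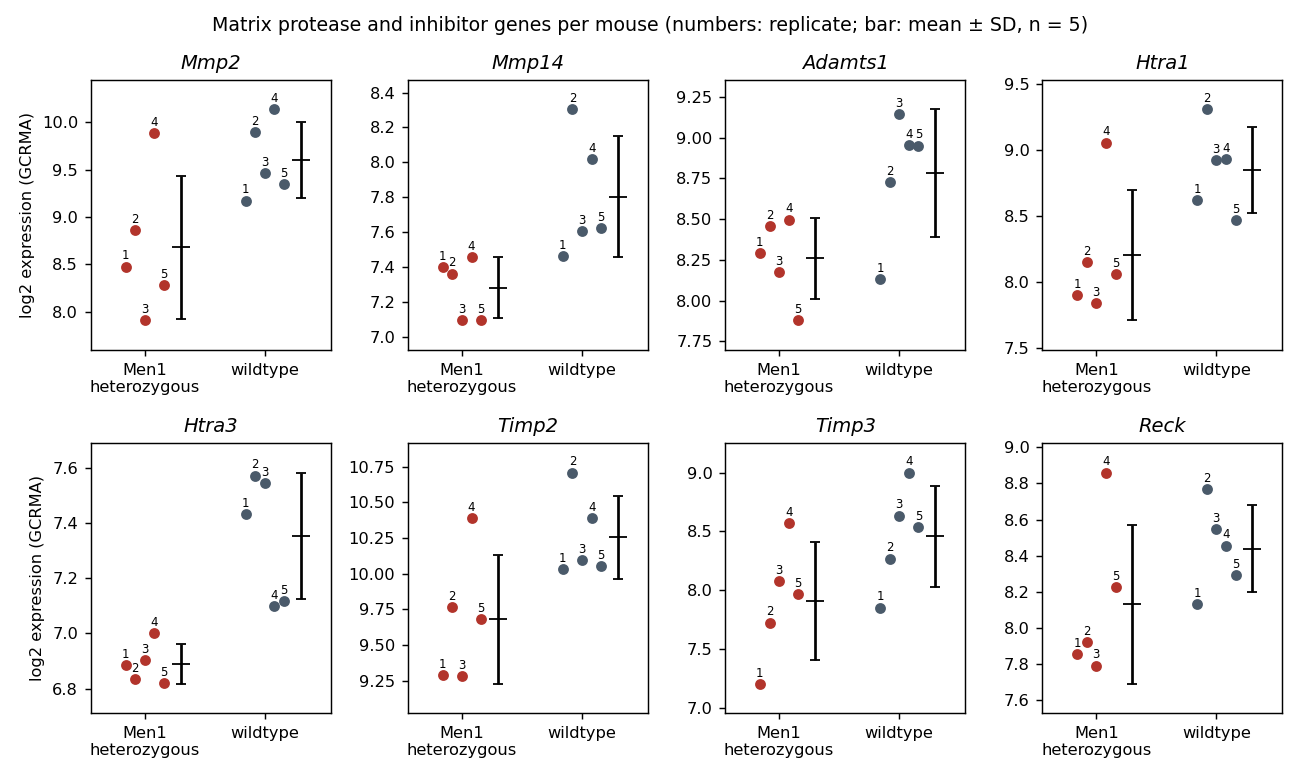
Log2 expression of the 8 measured genes in each mouse, heterozygous in red on the left and wildtype in grey on the right, with replicate numbers and mean ± SD (n = 5 each). The vertical axes differ between panels, and heterozygous replicate 4 is the highest heterozygous mouse in every panel.

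Mmp2 showed the widest difference of the 8. It stood at 8.48, 8.86, 7.91, 9.88 and 8.28 in heterozygous replicates 1 to 5, against 9.17, 9.90, 9.46, 10.14 and 9.35 in wildtype replicates 1 to 5. The heterozygous mice other than replicate 4 all lay below the lowest wildtype mouse, and replicate 4 lay among the highest wildtype mice. The means were 8.68 ± 0.76 and 9.60 ± 0.40, a difference of -0.92 (SE 0.34), or 52.8% of the wildtype level (95% interval 31.6% to 88.2%). The second Mmp2 probe set gave -1.11 (SE 0.33) and followed the first closely from mouse to mouse (r = 0.972 over the 10 arrays after each genotype's mean was subtracted).

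Mmp14, the activator of MMP2, stood at 7.40, 7.36, 7.10, 7.46 and 7.09 in heterozygous mice, against 7.46, 8.30, 7.61, 8.02 and 7.62 in wildtype mice. The groups did not overlap, but the gap between the highest heterozygous and the lowest wildtype mouse was only 0.0059. The heterozygous mice were close together (7.28 ± 0.17) and the wildtype mice more spread (7.80 ± 0.35), with a difference of -0.52 (SE 0.16). A further pair of Mmp14 probe sets lay below the filter, at 2.69 ± 0.045 and 1.93 ± 0.021 in heterozygous islets and 2.87 ± 0.16 and 1.98 ± 0.14 in wildtype islets. Mmp14 thus rests on 1 probe set.

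Adamts1 encodes a secreted metalloprotease that cuts the proteoglycans versican and aggrecan. Its 1 probe set stood at 8.29, 8.46, 8.18, 8.50 and 7.88 in heterozygous mice and at 8.13, 8.73, 9.15, 8.95 and 8.95 in wildtype mice. Wildtype replicate 1 lay within the heterozygous range, and the other 4 wildtype mice lay above all heterozygous mice. The difference was -0.52 (SE 0.19), and -0.68 without wildtype replicate 1. Mmp11, a protease of connective tissue cells that is activated inside the cell, averaged 2.79 ± 0.14 in heterozygous mice and 2.79 ± 0.097 in wildtype mice, below the filter in every mouse.

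The serine proteases HTRA1 and HTRA3 are secreted, share a trypsin-like domain, and are known to cut matrix proteins and to restrain TGF-beta signalling. Htra1 stood at 7.90, 8.15, 7.84, 9.05 and 8.06 in heterozygous mice, against 8.62, 9.31, 8.92, 8.93 and 8.46 in wildtype mice. Again only heterozygous replicate 4 lay within the wildtype range. The difference was -0.65 (SE 0.24), and the second Htra1 probe set, of a class whose probes can match other transcripts, gave -0.63 (SE 0.24) with r = 0.7099 between them.

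Htra3 stood at 6.88, 6.83, 6.90, 7.002 and 6.82 in heterozygous mice, against 7.43, 7.57, 7.55, 7.10 and 7.12 in wildtype mice. The groups were 0.097 apart, and heterozygous replicate 4 kept to its group here. The heterozygous SD was 0.072 and the wildtype SD 0.23, with wildtype replicates 4 and 5 lower than the other 3 wildtype mice. The difference was -0.46 (SE 0.12), or 72.5% of the wildtype level (95% interval 60.7% to 86.4%). A further pair of Htra3 probe sets ranged from 1.94 to 2.33 in heterozygous and 1.94 to 2.52 in wildtype mice, below the filter, so that Htra3 too rests on 1 probe set.

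Among the inhibitors, Timp2 stood at 9.29, 9.76, 9.28, 10.39 and 9.68 in heterozygous mice, against 10.03, 10.71, 10.10, 10.39 and 10.05 in wildtype mice. As for Mmp2, the 4 heterozygous mice other than replicate 4 lay below all wildtype mice. The difference was -0.57 (SE 0.22). Timp2 is the gene on which probe sets did not all point one way. Of its 4 above the filter, 3 stood lower, at -0.57, -0.43 (SE 0.25) and -0.42 (SE 0.18), while the dimmest averaged 6.06 ± 0.27 in heterozygous mice and 5.90 ± 0.35 in wildtype mice (0.16, SE 0.18). Centred correlations between these 4 ran from 0.384 to 0.825, below that of the Mmp2 pair. The mean over all 4 probe sets gave a difference of -0.32 for Timp2. The remaining 2 Timp2 probe sets lay below the filter.

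Timp3 stood at 7.21, 7.73, 8.08, 8.57 and 7.97 in heterozygous mice, against 7.85, 8.27, 8.63, 8.999 and 8.54 in wildtype mice. The groups overlapped, with heterozygous replicates 1 and 2 below all wildtype mice. Its 3 probe sets above the filter gave -0.55 (SE 0.26), -0.62 (SE 0.25) and -0.34 (SE 0.13), the last at a dim level of 4.83 ± 0.17 against 5.17 ± 0.25, and correlated at 0.618 to 0.798. Without heterozygous replicate 1 the difference of Timp3 was -0.37.

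Reck stood at 7.86, 7.92, 7.79, 8.86 and 8.22 in heterozygous mice, against 8.13, 8.77, 8.55, 8.46 and 8.29 in wildtype mice. Heterozygous replicate 4 had the highest value of all 10 mice. The difference of -0.31 (SE 0.21) was the narrowest of the 8, with a 95% interval from -0.76 to 0.14, and it was -0.49 without heterozygous replicate 4. Timp1, the inhibitor best known for its induction by injury and cytokines, averaged 2.21 ± 0.10 in heterozygous mice and 2.17 ± 0.039 in wildtype mice, below the filter in every mouse.

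**Figure D2:**
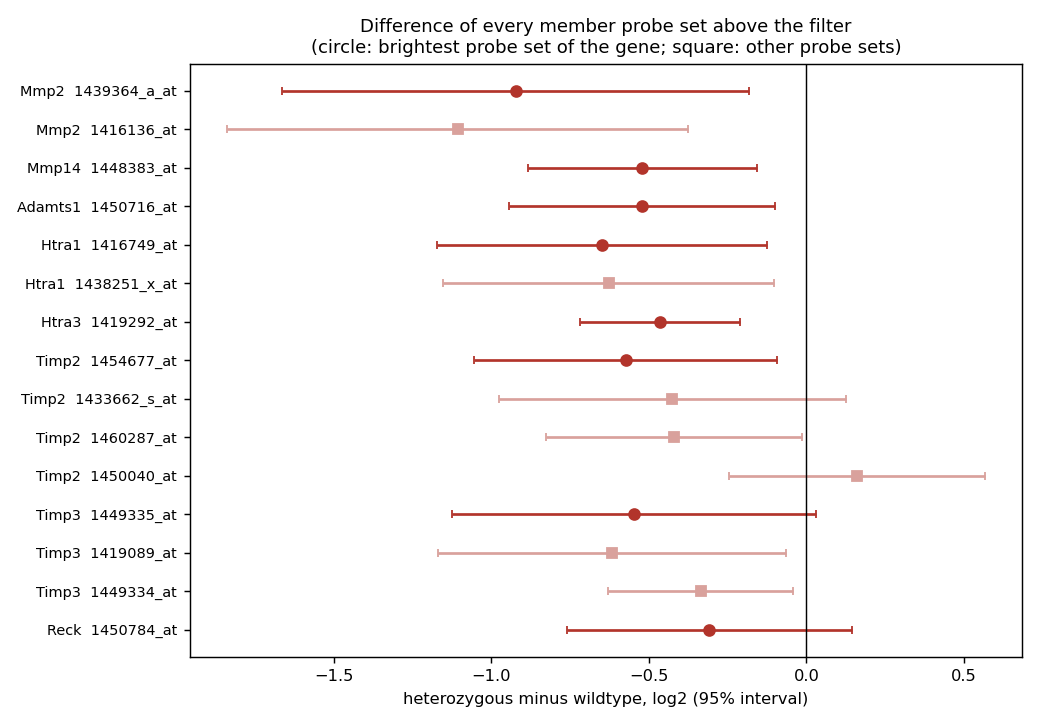
Difference between heterozygous and wildtype islets (log2, with unadjusted 95% interval) for the 15 probe sets above the filter, circles for the brightest probe set of each gene and squares for the others. Of the 15, 14 lie below 0 and 1, a dim Timp2 probe set, lies above it.

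Heterozygous replicate 4 was the highest heterozygous mouse for all 8 genes, against 16.4% of all probe sets, and reached the wildtype mean in 5 of them. With that mouse set aside, an exclusion chosen after the values were seen, the other 4 heterozygous mice lay below every wildtype mouse in 5 of the 8 genes (Mmp2, Mmp14, Htra1, Htra3 and Timp2), against 0.986% of all probe sets. Nothing is read from that share either, since the genes were chosen with this contrast known. Differences without replicate 4 were -1.22 for Mmp2, -0.86 for Htra1 and -0.75 for Timp2. A quality measure, the 3′ minus 5′ signal of control probe sets for Gapdh and beta-actin, was 3.59 in that mouse and 3.56 in heterozygous replicate 3, which was the lowest heterozygous mouse for Mmp2, Htra1, Timp2 and Reck. It was 3.23 to 3.32 in the other heterozygous mice and 3.21 to 3.37 in wildtype mice. Its part in the differences was not tested.

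Fibroblast marker genes moved with the same mice. Of 10 listed, 8 were measured (Col1a1, Col1a2, Col3a1, Dcn, Lum, Pdgfra, Dpt and Thy1), Mfap5 was below the filter, and Fbn1 had no probe set named here. All 8 had a lower mean in heterozygous islets, with a median difference of -0.77. The mean of these genes was 8.88, 9.03, 8.55, 10.06 and 9.07 in heterozygous mice, against 9.64, 10.23, 9.94, 10.25 and 9.49 in wildtype mice. Of 7 measured mural cell genes 7 stood lower (array means 7.34 to 8.79 in heterozygous and 8.12 to 8.63 in wildtype mice), and of 11 measured endothelial genes 10 did (6.89 to 7.83 and 7.47 to 8.02), with Des and Pecam1 below the filter. Other cell lists stood as follows. The differences of 7 myeloid genes ran from -0.64 for Cd14 to 0.041 for C1qb, with 5 lower, 2 higher and a median of -0.20. Their array means were 6.25 to 7.004 in heterozygous and 6.81 to 7.17 in wildtype mice. Of 7 duct genes 6 were lower (median -0.098), of 9 acinar genes 9 (median -0.044), and of 16 endocrine genes 10 (median -0.031). The 3 measured lymphocyte genes were higher, with a mean difference of 0.41 and array means of 3.67 to 5.42 in heterozygous and 3.90 to 4.56 in wildtype mice. The part of these lists in the protease differences was not tested, apart from fits with a covariate. With the acinar mean as a covariate all 8 protease and inhibitor genes stayed lower (median -0.52), and the fibroblast mean follows. In a bulk sample, fewer cells of a type and less RNA per cell cannot be told apart.

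Variation between mice of the same genotype is computed apart from the genotype difference, so correlations in it were tested. The genes were still chosen with stromal differences of these arrays known. Any effect of that choice on the correlations was not tested. After each genotype's mean was subtracted, 4 of the 8 genes correlated with the fibroblast mean over the 10 mice at an adjusted p under 0.05, by an exact two-sided permutation test within genotype (14400 orderings) adjusted over the 8 correlations. Adjusted over the 10530 measured genes outside the fibroblast list, 0 genes passed (lowest adjusted permutation p = 0.104), and these 4 stood at 0.223 to 0.319. With 14400 orderings the permutation p has a floor. Over 10530 genes, no gene could pass unless many others shared that floor. The count of 0 is thus partly set by the number of orderings, and nothing is concluded from it. Of all those genes 0.351% had an r at least as high as the lowest of the 4. A positive r with an unadjusted permutation p under 0.05 was found for 5 of the 8 genes, against 5.57% of all those genes. Only the brightest probe set of each gene entered these correlations. For the other probe sets, such as the second of Htra1 (r = 0.7099 with the first), no correlation with the fibroblast mean was computed. Htra1 had r = 0.956 (rho = 0.951, adjusted p = 0.00389 for each by permutation). Mmp2 had r = 0.938 (rho = 0.877), Timp2 r = 0.922 (rho = 0.890) and Reck r = 0.917 (rho = 0.854). Their permutation p for r was 0.00160, 0.00111 and 0.00264, or 0.00426, 0.00426 and 0.00528 after adjustment, and for rho the adjusted p was 0.0106, 0.00861 and 0.0106.

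The other 4 did not pass over the 8 correlations either. Mmp14 had r = 0.622 (rho = 0.559, permutation p = 0.0328, adjusted p = 0.0524), Timp3 r = 0.557 (rho = 0.454, adjusted permutation p = 0.185), Adamts1 r = 0.339 (rho = 0.515, adjusted permutation p = 0.352) and Htra3 r = 0.272 (rho = 0.216, adjusted permutation p = 0.352). That the first 4 genes follow fibroblast genes more closely than the last 4 was not itself tested. Without the 2 mice farthest from the median fibroblast level, heterozygous replicates 1 and 3, the first 4 kept r = 0.889 to 0.954 and still passed over the 8. Without heterozygous replicate 4, which lies far out in every panel, r was 0.877 for Htra1, 0.834 for Mmp2, 0.822 for Timp2 and 0.766 for Reck, and the adjusted permutation p of Reck was 0.0688.

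**Figure D3:**
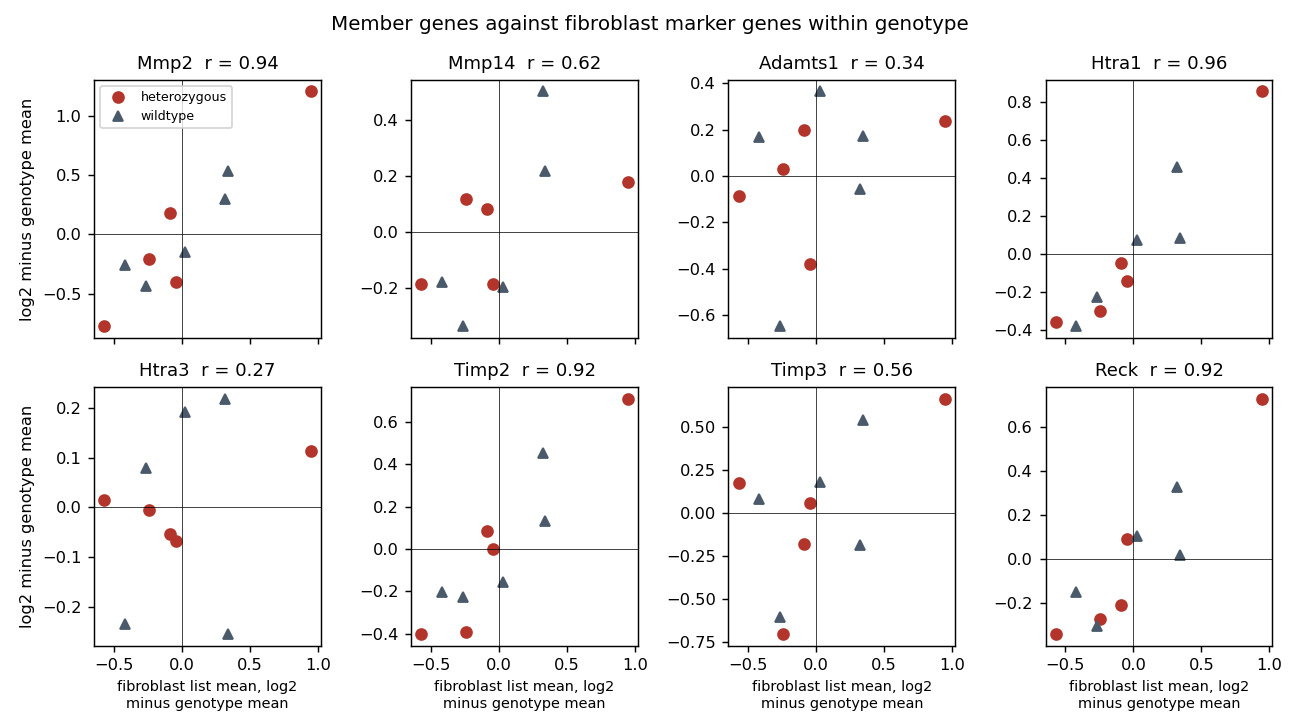
Each gene's log2 value against the mean of 8 fibroblast marker genes, both after subtraction of the mean of the mouse's own genotype (red circles heterozygous, grey triangles wildtype, 10 mice). Points lie along a line for Htra1, Mmp2, Timp2 and Reck (r from 0.917 to 0.956) and are scattered for Htra3 and Adamts1 (r = 0.272 and 0.339).

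The genotype difference was also fitted with the fibroblast mean as a covariate. It then stood at 0.036 (SE 0.19) for Mmp2, 0.028 (SE 0.14) for Htra1, 0.019 (SE 0.15) for Timp2 and 0.24 (SE 0.15) for Reck, close to or above 0. It stood at -0.39 (SE 0.16) for Htra3, -0.33 (SE 0.26) for Adamts1, -0.23 (SE 0.20) for Mmp14 and -0.11 (SE 0.32) for Timp3. Thus 4 of the 8 genes stayed lower in this fit, with a median of -0.046 over the 8, where the median over all probe sets was 0.045. The fibroblast mean itself differs with genotype, so the fit shares the difference between them by the slope among mice.

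**Figure D4:**
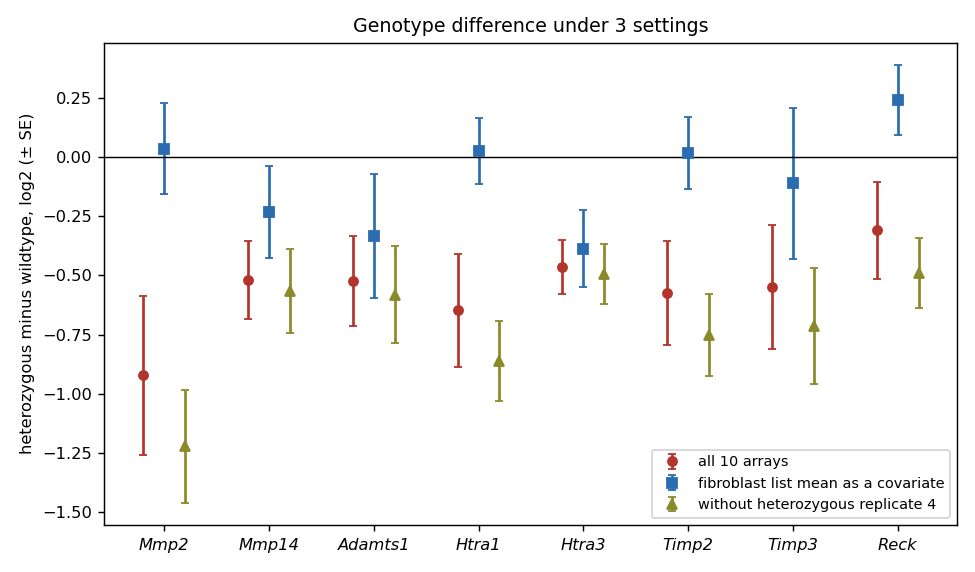
Heterozygous minus wildtype difference (log2, ± SE) of the 8 genes on all 10 arrays (red circles), with the fibroblast mean as a covariate (blue squares) and without heterozygous replicate 4 (olive triangles). With the covariate Mmp2, Htra1 and Timp2 lie at 0.019 to 0.036, while Htra3 moves only to -0.39, against -0.46 on all arrays.

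Among the 8 genes themselves, 26 of 28 pairs had a positive centred correlation, with a median of 0.514 where the median over all pairs of measured genes was 0.054. Htra1 and Timp2 were the closest pair (0.942), followed by Htra1 and Reck (0.937) and Timp2 and Reck (0.9004). Mmp2 and its activator Mmp14 stood at 0.681, and Mmp14 and the bridging inhibitor Timp2 at 0.669. Htra3 and Timp3 were the least alike (-0.198). These values describe 10 arrays whose genes share the RNA of each mouse.

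The genes most like each member were sought among 10538 measured genes by the same centred correlation over 10 arrays. Nearest to Htra1 were Tgfb3, a TGF-beta ligand (0.990), the serpin gene Serpinf1 (0.971) and Elp5 (0.960). Nearest to Mmp2 were Usp22 (0.955), Pdgfra, a growth factor receptor of fibroblasts (0.953), and the collagen gene Col6a1 (0.944). Nearest to Timp2 were Elp5 (0.964), the matricellular gene Ccn2 (0.961) and Sparcl1 (0.956), and to Reck Dpysl3 (0.977), Anxa1 (0.976) and the adhesion gene Icam1 (0.963). Between 1.23% and 2.35% of genes exceeded 0.8 with these 4 members.

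The remaining 4 had other neighbours. Adamts1 stood nearest to Zc3h6 (0.977), Fosl2, a subunit of AP-1 (0.954), and Nfkbiz, a regulator of NF-kappaB (0.925). Mmp14 stood nearest to Xpnpep1 (0.955), the intermediate filament gene Nes (0.945) and the dystroglycan gene Dag1 (0.932). Timp3 stood nearest to Vipas39 (0.957), Foxp1 (0.901) and Gps1 (0.899), and Htra3 to Sec14l1 (0.938), Chst1 (0.890) and the peptide hormone gene Adm (0.890). For these 4 between 0.266% and 0.854% of genes exceeded 0.8. With this many candidates and 10 arrays, high values arise easily, so the names are a description.

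The rest of the protease system was thinly measured. Of 19 other matrix metalloproteases listed, 14 were below the filter, among them the gelatinase gene Mmp9 and the stromelysin genes Mmp3 and Mmp10, 4 had no probe set named here, and 1 was measured, Mmp23, at 5.79 ± 0.35 in heterozygous mice and 6.12 ± 0.31 in wildtype mice (-0.33, SE 0.19). Of 27 ADAM and ADAMTS genes 9 were measured, 8 lower and 1 higher, with a median of -0.042. Adamts5, which cuts aggrecan, averaged 4.82 ± 0.26 in heterozygous mice and 5.25 ± 0.48 in wildtype mice (-0.43, SE 0.22), and Adam17, a sheddase inhibited by TIMP3, differed by -0.22 (SE 0.19). In none of these lists or those that follow did a gene pass the limma fit over all probe sets.

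Of 10 other proteases measured, 8 stood lower and 2 higher (median difference -0.10). Fap, a membrane serine protease of activated fibroblasts, differed by -0.22 (SE 0.14), and Ctsk, a collagen-cutting cathepsin, by -0.71 (SE 0.47). Of 9 other inhibitors 4 stood lower and 5 higher (median difference 0.019). The 2 with the smallest p were serpins. Serping1, the inhibitor of complement C1, averaged 9.77 ± 0.35 in heterozygous mice and 10.39 ± 0.24 in wildtype mice (-0.62, SE 0.18), and Serpinf1 at 7.70 ± 0.77 and 8.54 ± 0.51 (-0.84, SE 0.36). Timp4 lay below the filter, as did the plasminogen activator gene Plau and its receptor gene Plaur.

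Of 8 measured genes for activating enzymes, receptors and clearance, 5 stood lower and 3 higher (median difference -0.18). Furin, which activates MMP14 and MMP11 precursors, averaged 7.27 ± 0.19 in heterozygous mice and 7.15 ± 0.22 in wildtype mice. The convertase gene Pcsk5 differed by -0.63 (SE 0.27). Lrp1, a receptor that clears MMP2 and TIMP complexes, differed by -0.31 (SE 0.14), with its other probe set going the other way. Of 15 measured substrates and growth factors held in the matrix, 14 stood lower and 1 higher (median difference -0.31). Lama4, a laminin chain, did not overlap between groups (4.96 ± 0.25 in heterozygous, 5.57 ± 0.22 in wildtype islets, -0.60, SE 0.14), and the proteoglycan gene Bgn differed by -0.91 (SE 0.38). Versican and aggrecan, the substrates of ADAMTS1, lay below the filter.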

How the data were processed

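Gene expression was measured on 1 short-oligonucleotide array per mouse. RNA from about 100 islets per mouse was amplified over 2 cycles from 100 ng, per the labels' protocols. The deposited values are log2 expression per probe set, which the authors computed by GCRMA according to the submitters' processing notes. That method shrinks dim probe sets to a shared floor and aligns the arrays' distributions. That the scale is log2 was read from the deposited values (0.654 to 17.58). No source used here gives software versions or a genome build, and only the printed promoter windows carry coordinates.

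Probe sets were named from the platform annotation, leaving out those with several symbols and 64 control probe sets. limma 3.58.1 (R 4.3.3; lmFit, then eBayes) fitted the genotype difference on all 10 arrays with no covariate, with Benjamini-Hochberg adjustment over 18567 probe sets and a threshold of 0.05. The fit and the correlation test were tested on simulated data. The members and lists were chosen with earlier results of these data known. Per list, genes whose groups did not overlap and the 2 with the smallest p were named, and for each member the 3 genes most like it.

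No general pairing of mice by replicate number was found: deviations of same-numbered mice correlated at -0.284 to 0.108. Pairing for single genes was not tested. Alternatives covered the filter, normalization, variance prior, weights, a replicate block, covariates, the probe set per gene and each array left out. The probe set per gene was varied for the differences and not for the correlations. Leaving out heterozygous replicates 2 and 5 together, replicate 4 from the correlations, and adjusting these over all genes, were added after the data were seen. With 5 arrays per group, their number limits the precision. Figures were drawn with matplotlib 3.10.9.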

Additional observations from a re-analysis of the deposited data

Results flagged for a closer look

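The value of Htra1 in heterozygous replicate 4, 9.05, stands apart from the other heterozygous mice, of which the next highest was 8.15. The gap is 74.4% of the range of the 5 mice. It is the 1 value marked among 16 gene and genotype groups examined, where chance marks about 1 group in 20. The fibroblast mean of that mouse was 10.06, where the other heterozygous mice had 8.55 to 9.07.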

How the results depend on the processing

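The number of probe sets past the adjusted p stayed at 0 in each alternative run (lowest adjusted p from 0.217 to 0.9999, with 599 to 1201 at an unadjusted p under 0.05). All 8 genes stayed lower in every alternative but one, with a median difference from -0.66 to -0.49 when single arrays were left out. The exception is the fibroblast mean as a covariate, where 4 genes were lower, the median was -0.046, and Mmp2 (0.036), Htra1 (0.028), Timp2 (0.019) and Reck (0.24) changed sign. The cause was not tested. Of 168 values for single genes over 21 alternatives, 163 moved by less than 1 SD between mice and 4 changed sign. The remaining 1 moved further, Mmp14 at -0.23 with that covariate. The other filters, the variance prior and the replicate block could not move these differences, so their share of the 163 was fixed beforehand. With the replicate block, whose numbers were not found to pair the mice in general, 0 probe sets passed. The median of -0.54 could not change, since each number occurs once per genotype. The SE fell from 0.26 to 0.094 for Timp3, 0.34 to 0.19 for Mmp2 and 0.22 to 0.16 for Timp2. It also fell for Mmp14, Htra1 and Reck, and rose slightly for Adamts1 and Htra3. Of the 5 heterozygous mice 1 correlated best with its own number. Without heterozygous replicates 2 and 5 together, which were high in lymphocyte genes in earlier work on these data, the median was -0.50. In correlations with the fibroblast mean, 4 genes passed when adjusted over 8, and 0 when adjusted over all measured genes. That 0 is partly set by the number of orderings, which limits how low p can go. Adjusted over 8 without centring on genotype, 7 passed, Mmp14 (0.810), Timp3 (0.716) and Htra3 (0.683) in addition, and 3 did without heterozygous replicate 4. GCRMA compresses dim values, so levels of Mmp11 and Timp1 below the filter carry no comparison.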
